A study of Homo sapiens with 6 samples.

Results

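The 80 cytosolic ribosomal protein genes on file were compared between paclitaxel (PTX)-resistant BCSC and non-BCSC. Members were the protein-coding genes whose symbol starts with RPL or RPS and a digit, without the RPS6K kinase genes and without genes on the X and Y chromosomes, and they were 80 of 61015 genes counted. By their established place in the ribosome, 40 are proteins of the large (60S) subunit and 29 of the small (40S) subunit. A further 8 are paralogues of such proteins, and 3 match the symbol rule only by name: the readthrough genes RPS10-NUDT3 and RPL17-C18orf32, and RPS19BP1, a protein that binds RPS19. In these libraries the group did not move as a block. Of the 75 genes with enough counts to be tested, 12 were higher in BCSC (15.3% of all genes tested were), 19 were lower (14.6% of all genes) and 44 did not pass the test, and the median log2 fold change was −0.03. The steepest differences were a 3.98-fold higher level of RPS28 and a 3.74-fold lower level of RPL11 in BCSC.

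Ribosomal proteins wrap the ribosomal RNAs into the subunits that read mRNA and join amino acids. Cells need them in equal amounts, 1 copy per ribosome for nearly all of them, and proteins in excess are normally broken down. Their mRNAs are short and abundant and most begin with a run of pyrimidines, the 5′ terminal oligopyrimidine (TOP) tract, through which growth signals from the kinase mTOR and the RNA-binding protein LARP1 set how strongly they are translated. A few members also act outside the ribosome, for example RPL5 and RPL11, which bind and inhibit MDM2, the ligase that degrades p53.

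LncRNA sequencing, a total RNA method that keeps strand, had been run on MDA-MB-231 cells, an established triple-negative human breast cancer line, that had been made PTX-resistant and sorted on aldehyde dehydrogenase (ALDH) activity. The ALDH+ fraction is BCSC (breast cancer stem-like cells, n = 3 libraries) and the ALDH− fraction is non-BCSC (n = 3 libraries). Both groups come from the same resistant line, no parental or untreated cells are among these samples, and nothing in the labels says that the replicates were separate cultures or sorts, so the p-values measure the spread between these libraries, which may be technical. The cell type label is the same for all 6 libraries, and the groups were taken from the sample titles.

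Libraries held 15925943 to 21215352 counts in BCSC and 9898588 to 12263667 in non-BCSC. Of 6 genes that mark this line, all were counted in every library, with a summed level of 6428 to 7648 CPM (each count divided by its library size and put on one scale, with TMM for single genes and the plain total for sums) in BCSC and 4844 to 6454 in non-BCSC. The groups did not overlap in 4 of the 6. CD44 and MSN were higher in BCSC (2644 ± 158 against 1456 ± 195 CPM, and 486 ± 88.8 against 297 ± 55.1 CPM), and the keratins KRT8 and KRT18 were lower (6.59 ± 1.82 against 58.6 ± 10.01 CPM, and 1.85 ± 0.802 against 10.99 ± 1.28 CPM). Of 2 genes for enzymes of the ALDH family behind the sort, ALDH1A1 was lower in BCSC (0.23 ± 0.20 against 2.89 ± 0.364 CPM, a log2 fold change of −3.63 with an SE of 1.19, adjusted p 0.0446 by edgeR). ALDH1A3 was at 29.8 ± 3.98 against 17.5 ± 5.74 CPM (0.77, SE 0.27, adjusted p 0.0577). The 5 markers taken to be low in this line, ESR1, PGR, ERBB2, CDH1 and EPCAM, were all on file. They summed to 63.5 to 75.7 CPM in BCSC and 94.3 to 138 in non-BCSC. In 3 of the 5 all BCSC libraries lay below all non-BCSC libraries. PGR averaged 0.753 ± 0.563 CPM in BCSC and 13.9 ± 6.06 in non-BCSC, which edgeR told apart (adjusted p 0.00218). In that order ERBB2 averaged 64.7 and 78.3 CPM, and ESR1 4.47 and 10.2. Neither passed that test (adjusted p 0.22 and 0.0678). Of 10 markers of blood, vessel, liver and neural cells, 9 were on file, and their sum ran from 10.7 to 15.6 CPM in BCSC and from 37.6 to 67.5 CPM in non-BCSC. Among these PTPRC, which defines leukocytes, was at 0.579 ± 0.503 against 18.8 ± 4.98 CPM, HBB and APOA1 were at 0 in all 3 BCSC libraries, and only CD68 was higher in all 3 BCSC libraries. Their part in the results below was not tested. In bulk RNA, fewer cells that express a gene and less RNA of it per cell cannot be told apart.

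The members took 2.03%, 1.82% and 1.59% of all counts in the BCSC libraries. In non-BCSC they took 2.33%, 2.12% and 1.87%. The groups overlapped, and the means of 1.81% ± 0.222 and 2.11% ± 0.229 (SD, n = 3 each) were not told apart by an exact two-sided permutation test (p = 0.2, BH-adjusted 0.28 over 7 summed measures). With 3 libraries against 3 the smallest p this test allows is 0.1. The member counts were more concentrated in non-BCSC. The 10 members with the highest mean level held 33.6%, 36.5% and 37.03% of the member counts in BCSC against 42.5%, 43.2% and 45.4% in non-BCSC. The groups did not overlap (35.7% ± 1.81 against 43.7% ± 1.49, exact permutation p = 0.1, adjusted 0.233). RPL4, RPS3A, RPL5, RPL6, RPL17, RPL11, RPS2, RPS6 and RPL7A were among these 10.

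The balance between the subunits depended on how it was counted. Counts of 60S members were 1.596, 1.70 and 1.67 times those of 40S members in BCSC, and 1.82, 1.77 and 1.80 times in non-BCSC. The groups did not overlap (1.66 ± 0.0535 against 1.80 ± 0.0225, exact permutation p = 0.1, adjusted 0.233). When each transcript's counts were divided by its length, the ratio was 1.39 ± 0.0585 in BCSC and 1.38 ± 0.0208 in non-BCSC (exact permutation p = 0.9), and the difference changed sign to 0.0057. On the scale of counts per kb brought to a common total per library, 40S members ran from 92.7 for RPS29 to 3137 for RPS3A, with a median of 568, and 60S members from 106 for RPL37 to 2440 for RPL5, with a median of 554. On this scale the levels spanned 33.8 times among 40S and 23.0 times among 60S members in these libraries. The span depends on the transcript lengths used. RPS29 and RPL37, at its low ends, had count-weighted mean lengths of 4692 and 7272 bases, against a median of 993 over the tested members. By mean CPM, which is not divided by length, RPL37 ranked 30 among the members. How much of the span comes from length was not tested.

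**Figure D1:**
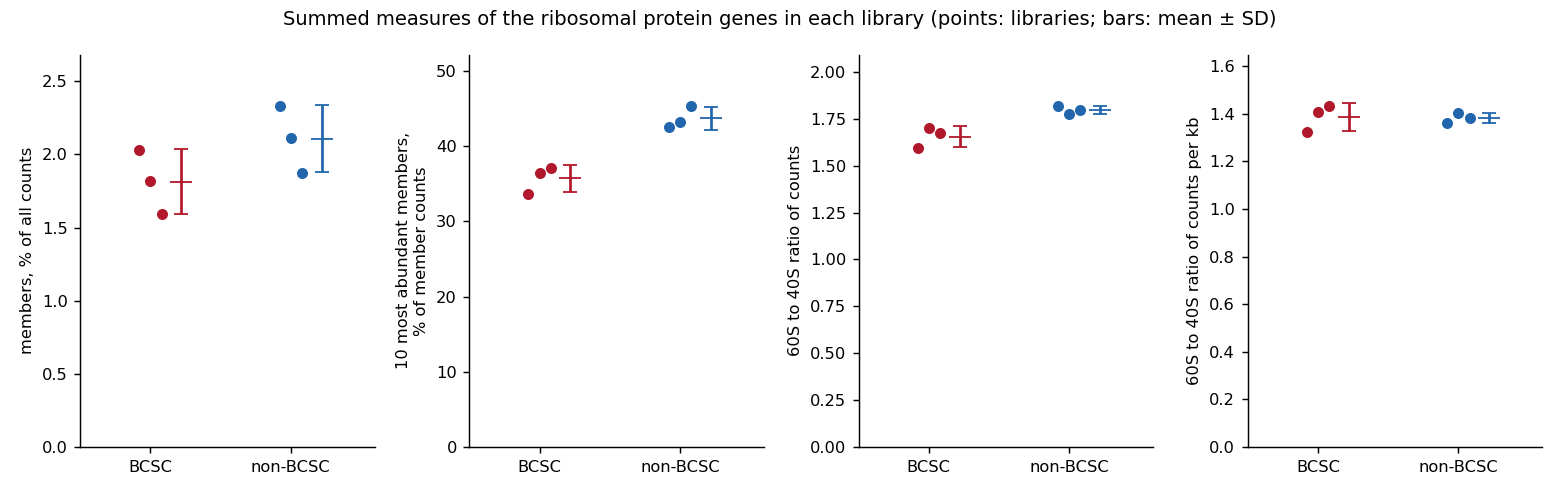
Summed measures of the ribosomal protein genes in each library, with points for libraries and bars for the mean ± SD of 3 BCSC and 3 non-BCSC libraries, on axes that start at 0. The share of all counts overlapped between the groups, the share held by the 10 most abundant members (35.7% against 43.7%) and the 60S to 40S ratio of counts (1.66 against 1.80) did not, and the ratio per kb was 1.39 and 1.38. Both ratios take all RPL over all RPS members, paralogues and matches by name included.

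To find members that differed between the sorted fractions, transcript counts were summed per gene and all 20442 genes with enough counts were tested (edgeR quasi-likelihood test, Benjamini-Hochberg (BH) adjusted over all genes tested). A gene was called at an adjusted p under 0.05 and a fold above 2. Of the 75 members tested, 5 were called higher in BCSC, where 8.85% of all genes tested were, and 5 were called lower, where 11.3% were. Without the minimum fold, 12 members were higher (15.3% of all genes) and 19 lower (14.6% of all genes). The 3 BCSC values all lay above the 3 non-BCSC values in 13 members (24.2% of all genes) and all below in 21 (27.9%). The median log2 fold change was −0.03, against −0.05 over all genes and 0.15 over protein-coding genes. The log2 fold changes of the members had an SD of 0.69 and ran from −1.90 to 1.99. The SD was 1.91 over all genes tested, which include genes of low count, and 1.61 over protein-coding genes. Among the related lists it was 0.94 over genes of ribosome assembly and 0.83 over ribosomal proteins outside the symbol rule. Over mitochondrial ribosomal proteins, translation factors with other genes of the TOP class, and regulators of translation it was 0.55, 0.53 and 0.62.

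**Figure D2:**
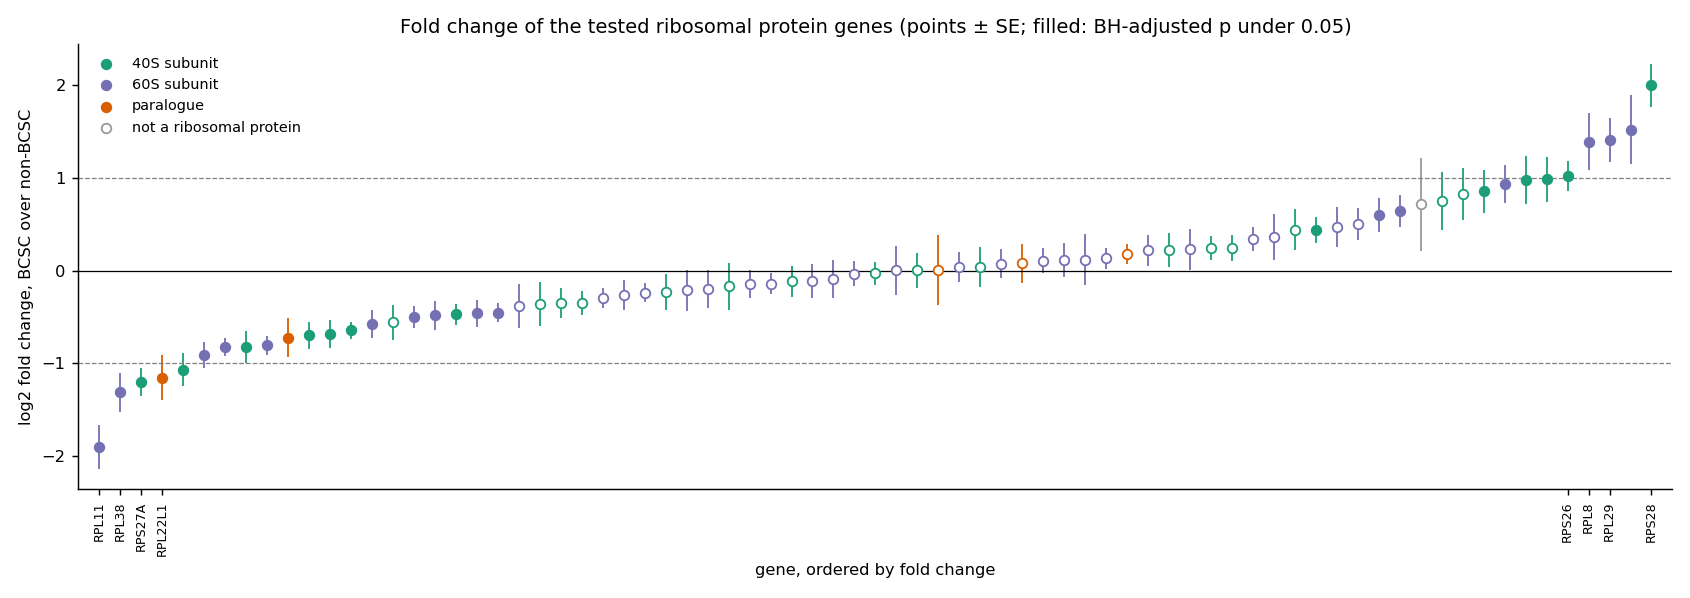
Log2 fold change of the 75 tested members, BCSC over non-BCSC, in order of size and coloured by subunit, with bars for the SE and filled points where the BH-adjusted edgeR p was under 0.05. Genes of both subunits stand at both ends, from RPL11 at −1.90 to RPS28 at 1.99, and the dashed lines mark a 2-fold difference.

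Both subunits held higher and lower genes. Among the 29 proteins of the 40S subunit, 6 were higher and 7 lower at an adjusted p under 0.05, with a median of −0.03, and among the 40 of the 60S subunit 6 were higher and 10 lower, with a median of −0.06. Of the 5 tested paralogues 2 passed, both lower (median 0.01), and RPS19BP1 did not pass (0.71, adjusted p 0.304).

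The 5 members called higher included RPS28, RPL29, RPL8 and RPS26. RPS28, a 40S protein near the path by which mRNA leaves the ribosome, had 174, 122 and 157 CPM in BCSC against 52.2, 29.5 and 31.8 in non-BCSC. The lowest BCSC library stood well clear of the highest non-BCSC library, and the log2 fold change was 1.99 (SE 0.23, edgeR adjusted p 0.000674). It was called in all 18 alternatives that sum transcripts to genes, with a log2 fold change from 1.88 to 2.35 when 1 library was left out and 1.43 with GC content corrected. RPS28 (ENSG00000233927.5) lies on chromosome 19 from 8386042 to 8388224 in the GRCh37 annotation and overlaps NDUFA7 on the opposite strand, whose separate counts equalled 8.47% of those of RPS28.

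RPS26, another protein at the mRNA exit and a gene mutated in Diamond-Blackfan anaemia, an inherited failure of red cell production, had 257, 237 and 252 CPM in BCSC against 144, 133 and 90.5 in non-BCSC. Its BCSC libraries were close together and above all non-BCSC libraries, and its log2 fold change, 1.02 with an SE of 0.16, stood just past the fold minimum (edgeR adjusted p 0.00254). It passed that minimum in 9 of 18 alternatives, and missed it without BCSC replicate 1 (0.998) or non-BCSC replicate 3 (0.86), while its adjusted p stayed at 0.0291 or less in all of them. With GC content corrected its log2 fold change was 1.52.

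RPL29, a 60S protein also known to bind heparin, had 357, 260 and 175 CPM in BCSC against 124, 85.2 and 89.9 in non-BCSC (log2 fold change 1.41, SE 0.24, edgeR adjusted p 0.00372). RPL8, a 60S protein at the peptidyl transferase centre, had 246, 156 and 118 CPM in BCSC against 94.9, 55.6 and 48.0 in non-BCSC (1.39, SE 0.30, adjusted p 0.00985). In both genes the groups did not overlap, but the BCSC libraries differed from each other by about 2 times, and replicate 1 was the highest library of its group in both groups. With GC content and length corrected neither was called, at 0.48 for RPL29 and −0.15 for RPL8, and over transcripts typed as protein-coding alone RPL8 was lost too (adjusted p 0.0535, in a fit to that subset by edgeR).

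The 5 members called lower included RPL11, RPL38, RPS27A and RPL22L1. RPL11, the 60S protein that binds MDM2, had 342, 335 and 175 CPM in BCSC against 1142, 1160 and 884 in non-BCSC. Every non-BCSC library held more than 2 times the level of the highest BCSC library, and the log2 fold change was −1.90 (SE 0.23, edgeR adjusted p 0.000873). It was called in all 18 alternatives, from −2.07 to −1.66 with 1 library left out and at −1.75 with GC content corrected. RPL11 (ENSG00000142676.14, chromosome 1, 24018232 to 24023325, GRCh37) ranked 6 of the 80 members by mean CPM.

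RPL38, a 60S protein known in the mouse for its part in translating Hox mRNAs, had 93.0, 101 and 68.5 CPM in BCSC against 261, 238 and 152 in non-BCSC (log2 fold change −1.31, SE 0.21, edgeR adjusted p 0.00277). It was likewise called in 18 of 18 alternatives, and at −1.38 with GC content corrected. RPS27A, which is made as a fusion of ubiquitin and a 40S protein, had 119, 105 and 78.4 CPM in BCSC against 233, 219 and 245 in non-BCSC (−1.21, SE 0.15, adjusted p 0.000944). The groups were separate in both genes. With GC content corrected RPS27A stood at −0.41 and was not called (adjusted p 0.248), and CLHC1, which overlaps it on the opposite strand, had counts of its own equal to 9.84% of those of RPS27A.

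RPL22L1, the paralogue of the RNA-binding 60S protein RPL22, had 13.3, 20.7 and 18.2 CPM in BCSC against 41.2, 44.4 and 30.4 in non-BCSC (log2 fold change −1.16, SE 0.24, edgeR adjusted p 0.00832). Without BCSC replicate 1 or non-BCSC replicate 2 it fell just short of the fold minimum, at −0.99 and −0.999. It is the tested member with the lowest GC content, 39.5%, and with GC content corrected its direction turned to 0.60 (adjusted p 0.186).

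**Figure D3:**
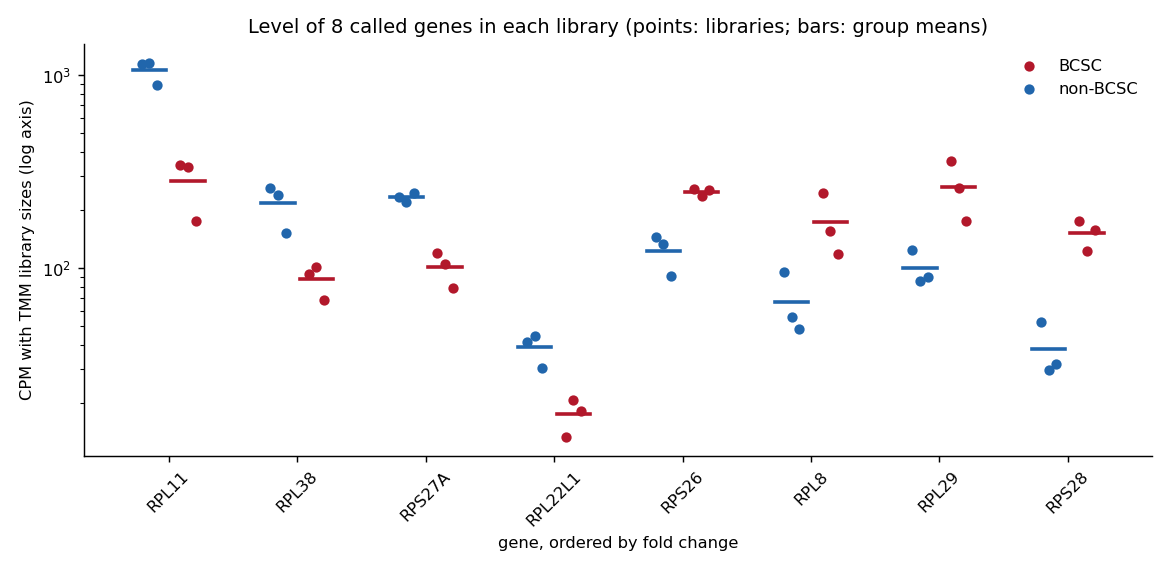
Level of 8 of the called members in each library, in CPM with TMM library sizes on a log axis, with points for the 3 BCSC (red) and 3 non-BCSC (blue) libraries and bars for the group means. The groups do not overlap in any of the 8, and RPL11 is the most abundant, at 884 to 1160 CPM in non-BCSC and 175 to 342 in BCSC.

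The lower level of RPL11 was called in the gene sum, and by edgeR in none of its transcripts. Its summed counts were 6950, 5136 and 2888 in BCSC against 13833, 13127 and 9215 in non-BCSC. RPL11-206, the transcript with the most counts, had 1536, 3558 and 666 in BCSC against 11465, 5288 and 0 in non-BCSC. RPL11-201, which also codes for the protein, had 0 counts in BCSC replicate 2 and non-BCSC replicate 1 and 4073 in non-BCSC replicate 3. How the counts were divided among overlapping transcripts thus differed between replicates of 1 group, while their sum kept the groups apart. The smallest adjusted p among them was that of RPL11-203 (edgeR, −2.09, SE 0.58, adjusted p 0.144), which DESeq2 gave as 0.0178. Transcripts with a retained intron were 10.2%, 13.1% and 14.5% of the RPL11 counts in BCSC against 3.85%, 3.89% and 6.001% in non-BCSC.

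**Figure D4:**
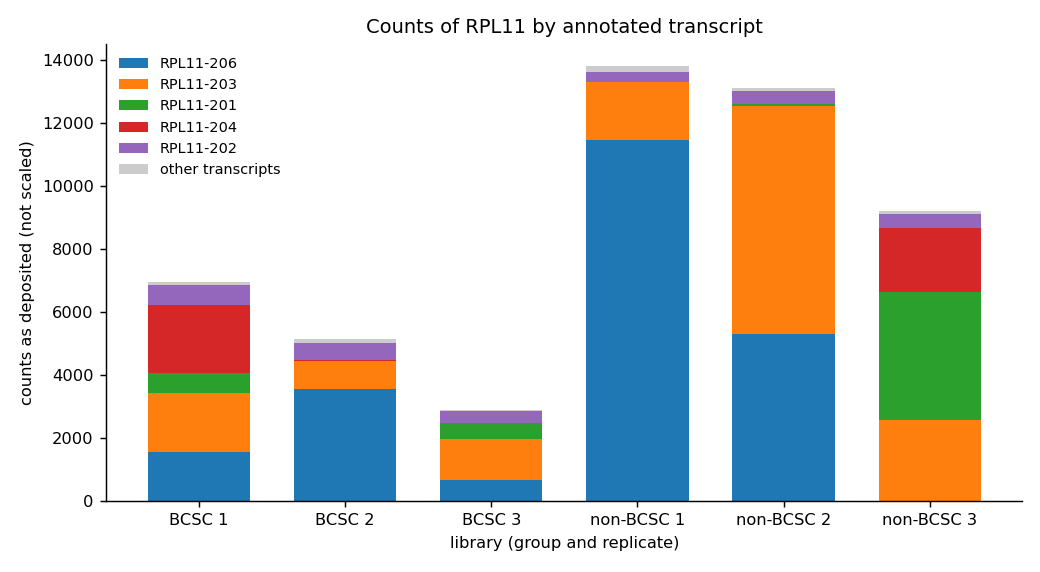
Counts of RPL11 as deposited in each library, stacked by annotated transcript from 0. The mix of transcripts differs from library to library within each group, whereas the total is 2888 to 6950 in BCSC and 9215 to 13833 in non-BCSC, in libraries that were deeper in BCSC.

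Start sites were compared because TOP tracts mark this gene class. Of the members, 61 had an entry in the RefSeq table of start windows (GRCh38.p14), and 40 of these (65.6%) carried C at the annotated start followed by 4 bases of C or T on the gene's strand, here taken as a TOP start, against 5.14% of all 27305 genes in the table and 6.34% of the coding ones. The windows below hold 15 bases before and 15 bases from the start for 5 called members with a TOP start, for the called members RPS28 and RPS26, which have none by this rule, and for RPS3A, RPL22 and RPL6 as abundant or paired genes. Capitals mark the pyrimidine run that begins at the start.
RPL11 (chr1:23691791-23691820, plus strand): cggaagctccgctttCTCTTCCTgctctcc
RPL38 (chr17:74203663-74203692, plus strand): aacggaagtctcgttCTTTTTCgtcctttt
RPS27A (chr2:55232673-55232702, plus strand): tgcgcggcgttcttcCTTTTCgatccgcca
RPL22L1 (chr3:170870181-170870210, minus strand): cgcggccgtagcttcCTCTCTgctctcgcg
RPL29 (chr3:51995881-51995910, minus strand): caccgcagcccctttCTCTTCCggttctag
RPS3A (chr4:151099613-151099642, plus strand): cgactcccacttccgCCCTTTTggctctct
RPL22 (chr1:6199581-6199610, minus strand): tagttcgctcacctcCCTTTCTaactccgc
RPS28 (chr19:8321481-8321510, plus strand): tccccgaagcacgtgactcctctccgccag
RPS26 (chr12:56041903-56041932, plus strand): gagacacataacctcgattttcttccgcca
RPL6 (chr12:112409271-112409300, minus strand): ggggagacggcgcgtgcactgtgttcctgg

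Members with and without a TOP start moved in both directions. The 40 with one ran from −1.90 (RPL11) to 1.41 (RPL29) in log2 fold change, with a median of −0.06, 5 higher and 11 lower at an adjusted p under 0.05. The 19 tested members without one had a median of 0.08, with 4 higher and 4 lower. In the window from 250 bases before to 50 after the start, searched on both strands, CGGAAG (the core that ETS factors bind) was found in 59.0% of the 61 members and 22.6% of all genes, and 30.1% of coding genes. AAGATGGC (a YY1 motif) was found in 11.5% and 3.52%, and GGGCGG (the GC box) in 55.7% and 48.3%. TATAAA was found in 11.5% of members and 13.99% of all genes, and CACGTG in 8.20% and 8.77%. A match is a run of letters in this window and not a measured binding site.

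Among the 10 most abundant members, 9 passed the test, 7 of them lower in BCSC and 2 higher. RPL4, a 60S protein lining the exit tunnel, had 1276, 1431 and 1320 CPM in BCSC against 2184, 1878 and 1627 in non-BCSC (log2 fold change −0.50, SE 0.12, edgeR adjusted p 0.0125). RPS3A, a 40S protein, had 800, 884 and 773 CPM against 1262, 1335 and 1241 (−0.64, SE 0.09, adjusted p 0.00159). RPL6, a 60S protein, had 527, 493 and 539 CPM against 1016, 887 and 858 (−0.82, SE 0.10, adjusted p 0.00076). In all 3 the non-BCSC libraries lay above every BCSC library, by less than the 2-fold minimum on average.

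RPL17, at the mouth of the exit tunnel, was also lower, by edgeR at −0.46 (SE 0.10, adjusted p 0.0108). RPS6, the 40S protein that S6 kinase phosphorylates, had 471, 440 and 435 CPM against 679, 661 and 528 (−0.47, SE 0.11, adjusted p 0.0137). RPL5 did not pass (−0.24, SE 0.10, adjusted p 0.111), at 885, 948 and 773 CPM in BCSC against 1087, 1045 and 943 in non-BCSC. RPS2, a 40S protein at the mRNA entry, had 982, 654 and 565 CPM in BCSC against 499, 339 and 274 in non-BCSC (0.98, SE 0.24, adjusted p 0.0157), and RPL7A, a 60S protein, had 763, 635 and 451 CPM against 437, 358 and 390 (0.64, SE 0.17, adjusted p 0.0217). With GC content corrected RPL6 stood at −0.28, RPL17 at −0.02 and RPL7A at 0.32, while RPS2, RPL4 and RPS3A changed sign to −0.25, 0.29 and 0.43. None of these 6 had an adjusted p under 0.05 in that fit, and RPS6 turned to 0.80 (adjusted p 0.0473). With 1 library left out, the adjusted p of several of these genes passed 0.05. This held for RPL4 without non-BCSC replicate 1 or 2 (0.0673 and 0.0594), and for RPL17 and RPS6 without BCSC replicate 2 or non-BCSC replicate 1 or 2 (up to 0.0811). It also held for RPS2 without BCSC replicate 1 or non-BCSC replicate 2 or 3 (up to 0.0641), and for RPL7A without those 3 libraries or BCSC replicate 2, each in turn (up to 0.0772).

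The remaining members with an adjusted p under 0.05 were RPL13, RPL27, RPS9, RPS13 and RPS15, which were higher, and RPL22, RPL23A, RPL27A, RPL34, RPL36AL, RPL37, RPS24 and RPS25, which were lower. RPL27, a 60S protein, had 134, 103 and 106 CPM in BCSC against 74.4, 62.2 and 42.8 in non-BCSC (log2 fold change 0.93, SE 0.20, edgeR adjusted p 0.00966). RPL34, a small 60S protein, had 168, 156 and 157 CPM against 284, 299 and 256 (−0.81, SE 0.10, adjusted p 0.000968). RPL27A, another 60S protein, had 278, 294 and 236 CPM against 601, 504 and 415 (−0.91, SE 0.14, adjusted p 0.00257). The groups did not overlap in any of these 3 genes, which kept an adjusted p under 0.05 whichever library was left out. With GC content corrected RPL27 and RPL27A still passed, at 0.90 and −0.80 (adjusted p 0.0139 and 0.0206), and RPL34 did not, at 0.03 (adjusted p 0.947). RPL37 was the single member to pass the test while its groups overlapped, and RPL15, RPL7, RPS16 and RPS29 separated the groups without passing (adjusted p 0.0523 to 0.125).

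Of the 3 members best known to bind MDM2, RPL11 alone was called. RPL23, a 60S protein and the third of them, had 168, 160 and 134 CPM in BCSC against 206, 206 and 140 in non-BCSC (log2 fold change −0.26, SE 0.16, edgeR adjusted p 0.247). Its groups overlapped. RPL5, which joins RPL11 in 1 complex with ribosomal RNA, is given above at −0.24. Among the genes first tied to Diamond-Blackfan anaemia, RPS26 was higher and RPS24 was lower, at 143, 158 and 137 CPM in BCSC against 274, 251 and 187 in non-BCSC (−0.70, SE 0.15, adjusted p 0.00818). RPS24 turned to 0.37 with GC content corrected (adjusted p 0.348). RPS19, the gene most often mutated in that disease, had 97.1, 67.1 and 48.7 CPM against 62.1, 34.3 and 30.02 (0.75, SE 0.31, adjusted p 0.0927). RPL35A had 84.5, 65.6 and 74.8 CPM against 78.6, 75.9 and 59.0 (0.07, SE 0.16, adjusted p 0.749). For RPS19 and RPL35A the groups overlapped.

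Paralogues are near copies that can take the place of the main gene in some tissues. RPL22L1 made up 8.73%, 13.6% and 12.6% of the counts of RPL22L1 and RPL22 together in BCSC against 16.5%, 18.5% and 17.7% in non-BCSC (11.7% ± 2.59 against 17.6% ± 0.992, exact permutation p = 0.1, adjusted 0.25 over 5 pairs). RPL22 itself was also lower in BCSC (139, 131 and 126 CPM against 208, 196 and 142, log2 fold change −0.46, SE 0.15, edgeR adjusted p 0.0387). RPL7L1, a nucleolar relative of RPL7, made up 49.5%, 50.2% and 49.7% of the pair in BCSC against 42.2%, 37.9% and 45.2% in non-BCSC (exact permutation p = 0.1, adjusted 0.25). In both pairs the groups did not overlap, in opposite directions.

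In the counts as deposited, neither gene of the RPL7L1 and RPL7 pair passed the edgeR test alone, at 0.18 (SE 0.11, adjusted p 0.23) and −0.30 (SE 0.11, adjusted p 0.0685). With GC content corrected both did, at 0.76 for RPL7L1 (adjusted p 0.0212) and 1.33 for RPL7 (adjusted p 0.00568), so in that fit RPL7 had the larger difference, against the shift in the pair's counts. RPL26L1 held 2.14% ± 0.541 of the counts shared with RPL26 in BCSC and 2.26% ± 0.357 in non-BCSC (exact permutation p = 0.7), and RPS27L held 28.7% ± 2.65 and 27.8% ± 5.31 of those shared with RPS27 (exact permutation p = 1.0). RPL26L1, RPL26, RPS27L, RPS27 and RPL3 did not pass the edgeR test, with log2 fold changes between 0.00 and 0.22. RPL36AL was lower, at 30.1, 30.7 and 37.4 CPM against 52.0, 68.9 and 41.0 (−0.72, SE 0.21, adjusted p 0.03). Its GC-corrected value was 0.16. Without 1 library RPL22 passed in 1 of 6 fits, that without non-BCSC replicate 3, and RPL36AL in 2, those without BCSC replicate 3 or non-BCSC replicate 3. The adjusted p reached 0.172 for RPL22 and 0.138 for RPL36AL.

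Some paralogues known from single tissues were near absent. RPL3L, the muscle form of RPL3, had 6 counts in BCSC replicate 2 and 0 in the other 5 libraries, and RPL10L, the testis form of RPL10, had 0, 4 and 0 counts in BCSC against 8, 3 and 10 in non-BCSC. RPL39L had 35 counts in non-BCSC replicate 1 and 0 elsewhere. RPL17-C18orf32 had 4 counts in non-BCSC replicate 2 and 0 elsewhere, and RPS10-NUDT3 had 9, 7 and 0 counts in BCSC against 0, 225 and 352 in non-BCSC. These 5 genes were not tested. Where a gene has 0 counts, up to 3 cannot be told from none, or 0.147 CPM in the deepest library, and this covers counting error only because the reads carry no molecular identifiers.

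At the level of single transcripts the data were less firm. Members had 772 transcripts on file, of which 631 were counted and 394 tested. By edgeR 1 was called higher, where 0.597% of all transcripts tested were, and 0 were called lower, where 0.187% were. DESeq2 called 34 higher and 23 lower (7.46% and 8.45% of all transcripts tested). At an unadjusted edgeR p under 0.05, 43 were higher and 31 lower. The share over all transcripts was not taken at that threshold, so these counts cannot be set against a background. The transcript called by edgeR was RPL13A-209, a retained-intron transcript with 1275, 1589 and 1496 counts in BCSC and 0 in each non-BCSC library (edgeR adjusted p 0.0345). Its mean in BCSC was 324-fold the mean of a floor of 3 counts per library. It passed the count filter through its BCSC libraries alone, so that p adds no support. The RPL13A gene sum overlapped between the groups (0.47, SE 0.21, edgeR adjusted p 0.123). Whether counts moved between its overlapping transcripts, as in RPL11, was not tested. In 9 genes transcripts went both ways at an unadjusted p under 0.05, a count for which no share over all genes was taken. In RPS24, for example, the retained-intron transcript RPS24-217 had 1564, 1153 and 1188 counts in BCSC against 447, 233 and 125 in non-BCSC, although the gene sum was lower in BCSC. Within a group the median coefficient of variation was 15.4% in BCSC and 18.8% in non-BCSC for gene sums, and 21.17% and 26.98% for the transcript with the most counts in each gene.

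Other RNAs made at these loci were counted as well. Retained-intron transcripts took 12.4% ± 0.913 of the member counts in BCSC and 11.1% ± 1.32 in non-BCSC (exact permutation p = 0.3), with the share higher in all 3 BCSC libraries in 14 of 63 members that had such transcripts and lower in 5. Over the 8027 genes tested that had them, 9.24% were higher and 9.57% lower in this way. In RPL38 it was 7.26%, 10.9% and 15.6% in BCSC against 2.94%, 2.75% and 2.09% in non-BCSC, and in RPS28, which went the other way, 1.36% ± 0.172 against 4.38% ± 2.29. The 53 small nucleolar RNAs (snoRNAs, guides for chemical changes of ribosomal RNA) that lie inside members summed to 18.2, 22.7 and 18.9 CPM in BCSC against 25.5, 27.4 and 32.8 in non-BCSC (exact permutation p = 0.1, adjusted 0.233). Their lowest non-BCSC library lay above the highest BCSC library. This sum leans on few of them. SNORD100 and SNORA33, both inside RPS12, had 586 and 324 counts over the 6 libraries, and the next, SNORA66, had 137. Many of the others had 1 count per library. The sum without the RPS12 snoRNAs was not taken, so the separation is not shown for the snoRNAs in general.

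Ribosomal protein genes have many processed copies in the genome. The 1503 annotated pseudogenes of 70 members had counts of their own equal to 4.43% ± 0.437 of the member counts in BCSC and 5.64% ± 1.23 in non-BCSC (exact permutation p = 0.2). In 6 members the pseudogene counts equalled over 10% of the gene's own, up to 94.4% for RPL9, 56.1% for RPL7 and 41.1% for RPL21, so the levels of these genes are uncertain. RPS2 is among them, at 11.1%. For the 10 called members the ratio was at most 6.20%, in RPS27A.

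Fold changes followed base composition. Over the 75 members the rank correlation (Spearman) between the log2 fold change and the GC content of the transcripts was 0.50, as a description across genes that share the same 6 libraries, and over all genes tested it was 0.54. The 25 members with the highest GC content (52.3% to 62.8%) had a median log2 fold change of 0.44, with 8 higher and 1 lower at an adjusted p under 0.05. The 25 with the lowest (39.5% to 45.4%) had a median of −0.30, with 1 higher and 10 lower. The 12 members on chromosome 19, whose median GC content was 56.8%, had a median of 0.45, with 4 higher and 1 lower. The share over all genes of like GC content was not taken. These counts thus cannot be set against a background, and they are not shown to be particular to the members. Replicates of 1 group also differed by GC content, since the rank correlation of GC content with a library's deviation from its own group mean was 0.72 for BCSC replicate 1 and 0.69 for non-BCSC replicate 1, and between −0.24 and −0.56 for the other libraries.

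After counts were corrected for GC content and length in each library, 7 members were called higher and 7 lower, and 5 of the 10 called as counted were called in the same direction, RPS28, RPS26, RPL11 and RPL38 among them. At an adjusted p under 0.05, 14 were then higher and 12 lower. Over all 20442 genes tested, the same fit called 3753 higher and 1758 lower. Without the fold minimum it had 5321 higher and 1950 lower, so the shares over all genes as counted do not apply to it. The correction moved the median of all genes to 0.24 and that of the members to 0.11. Across members the rank correlation with GC content became −0.63 (−0.15 over all genes), so this correction went past 0 for them, and the direction of genes of extreme GC content is not settled by either fit. RPL11 and RPL38 have GC contents of 48.6% and 50.3%, and RPS28, at 53.9%, is among the 25 members with the highest.

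**Figure D5:**
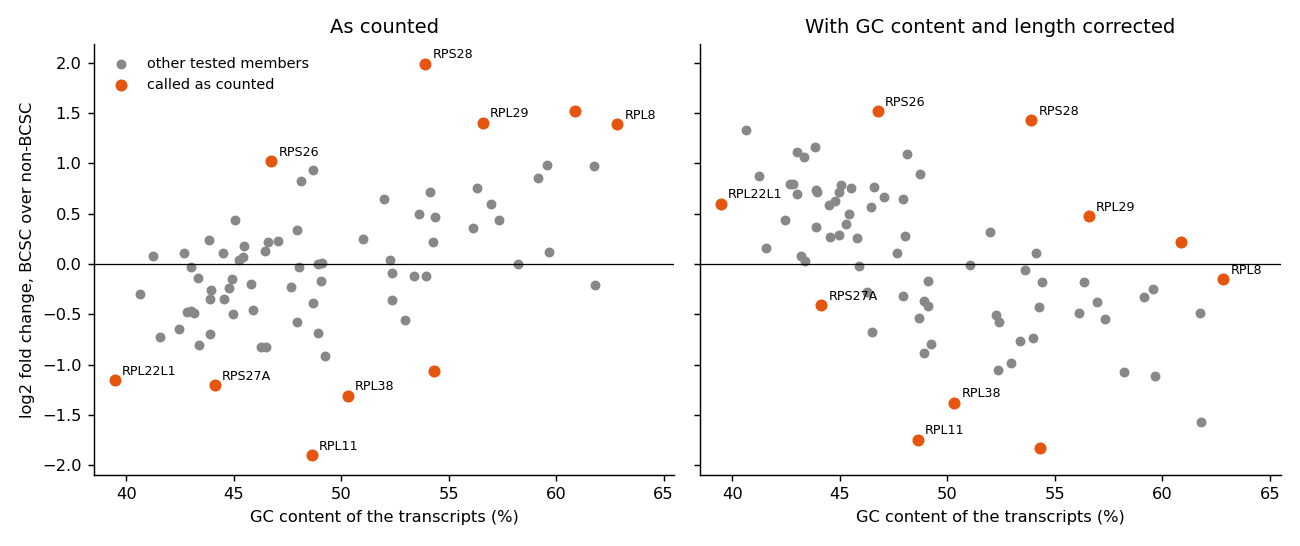
Log2 fold change of the 75 tested members against the GC content of their transcripts, as counted (left) and with GC content and length corrected (right), with the 10 called members in orange and 8 of them named. The rank correlation is 0.50 on the left and −0.63 on the right, and RPS28, RPS26, RPL11 and RPL38 lie beyond a log2 fold change of 1 on both sides.

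Other genes of the translation machinery were described by the same fit, and their counts at an adjusted p under 0.05 stand beside 15.3% higher and 14.6% lower over all genes tested. Of 11 ribosomal proteins outside the symbol rule, 2 were higher and 3 lower at an adjusted p under 0.05, with a median log2 fold change of 0.21. RPL10, a 60S protein encoded on the X chromosome, was the 1 called, at 146 ± 60.01 CPM in BCSC and 34.6 ± 11.0 in non-BCSC (2.08, SE 0.31, edgeR adjusted p 0.00196). RPS4X, a 40S protein, and RPL36A, the partner of RPL36AL, were lower (−0.60, adjusted p 0.00221, and −0.91, adjusted p 0.00762). With GC content corrected RPL10 stood at 1.59 (adjusted p 0.00094), RPS4X at −0.0044 (adjusted p 0.992) and RPL36A at 0.20 (adjusted p 0.6).

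Of the 78 mitochondrial ribosomal protein genes, which serve the separate ribosome of mitochondria, 13 were higher and 5 lower at an adjusted p under 0.05 (median 0.32, edgeR), and 5 of the higher ones passed the fold minimum. Their share of all counts was 0.332% ± 0.00527 in BCSC and 0.327% ± 0.00873 in non-BCSC (exact permutation p = 0.5). MRPS21 was higher (0.98, SE 0.19, adjusted p 0.00646) and MRPS22 lower (−0.57, SE 0.14, adjusted p 0.016). Of 14 other genes whose mRNAs belong to the TOP class, most of them translation factors, 1 was higher and 4 lower, with a median of −0.15. The lower ones were EIF3E, NAP1L1, NPM1 and TPT1, and among these only EIF3E is a translation factor. EIF3E, a subunit of initiation factor eIF3, was lower at 566 ± 77.0 against 1108 ± 60.7 CPM (−0.97, SE 0.11, adjusted p 0.00075), and NAP1L1, a histone chaperone, was lower at 848 ± 110 against 1468 ± 57.1 CPM (−0.79, SE 0.11, adjusted p 0.00138). EEF1D, part of elongation factor eEF1, was called higher (1.03, SE 0.26, adjusted p 0.0159), and turned to −0.47 after the GC correction (adjusted p 0.14). EIF3E then turned to 0.67 (adjusted p 0.0665), NAP1L1 to 0.10 (adjusted p 0.79) and MRPS22 to 0.56 (adjusted p 0.132), and MRPS21 stood at 1.20 (adjusted p 0.00255).

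Of 32 tested genes of ribosome assembly, 10 were higher and 4 lower (median 0.41). NOB1, the nuclease that finishes the small subunit's RNA, was higher at 67.0 ± 14.4 against 23.6 ± 4.55 CPM (1.51, SE 0.21, edgeR adjusted p 0.00157), and POLR1A, the large subunit of RNA polymerase I, was higher at 155 ± 27.6 against 76.7 ± 5.53 CPM (1.02, SE 0.14, adjusted p 0.00165). NCL, or nucleolin, was lower (−0.58, SE 0.12, adjusted p 0.00725), and turned to 0.13 with GC content corrected (adjusted p 0.744). NOB1 and POLR1A then stood at 0.82 (adjusted p 0.0119) and 0.79 (adjusted p 0.0103). Of 15 regulators of ribosomal protein mRNA translation, 6 passed the test, each of them higher (median 0.48). RPTOR, a subunit of mTOR complex 1, was higher at 30.5 ± 8.92 against 7.45 ± 1.20 CPM (2.03, SE 0.29, adjusted p 0.00159), and LARP1, which binds TOP mRNAs, had 751, 730 and 620 CPM in BCSC and 357 ± 71.0 in non-BCSC (0.97, SE 0.14, adjusted p 0.00202). These values are given beside those of the members, and no relation between them was tested. The median GC content of the regulators was 48.2%, and RPTOR was at 1.07 and LARP1 at 0.82 with GC content corrected.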

How the data were processed

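The file the authors deposited gives raw read counts, whole and unscaled, for 252618 transcripts in 6 libraries. Per the study's methods, reads were aligned with HISAT2 to hg19, whereas the submitters' processing notes list hg38, HISAT2, featureCounts and DESeq2 with no role. The table holds no coordinates. The annotation release, and whether strand was used in counting, are not given in the sources used here. By identifier 249616 transcripts matched GENCODE v44 lifted to GRCh37, which supplied gene names, types, lengths, GC content and gene positions. Those left out were 2998 unmatched transcripts and 4 with assembler-made identifiers, together 0.229% to 0.341% of the counts of a library.

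Counts were summed per gene. The test was the quasi-likelihood test of edgeR 4.0.16 under R 4.3.3, fitted robustly to group alone after TMM scaling and filterByExpr, and was tried first on simulated counts. The common biological coefficient of variation over genes was 0.453. The SE is the log2 fold change divided by the square root of the F statistic. Alternatives were RLE factors, total counts, TMM without the members, DESeq2 1.42.0, filters, thinning, protein-coding genes only, a replicate block, each library left out, and a GC and length correction (loess, span 0.3). Sums over protein-coding transcripts were added after the data were seen. Single values per library were compared by exact two-sided permutation over 20 regroupings (scipy 1.17.1). Libraries of a group differed by more than counting error, with chi-square over degrees of freedom of 21.3 to 133 over the members. Depth was 9898588 to 21215352 counts per library.

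Members and gene lists were chosen with earlier results of these data known. The genes named are the 10 most abundant members, the 6 higher and 6 lower with the smallest p, every called member, the paralogues with their partners, the MDM2 and Diamond-Blackfan genes, members at 0, and from each related list up to 2 higher and 2 lower. Some of the genes this rule names are not reported here. The analyses of retained introns, pseudogenes, snoRNAs, start windows, motifs, chromosome 19 and the top 10 share, and any other gene named, were chosen after values were seen. Same-numbered replicates were not taken as pairs. Start windows are from RefSeq, GRCh38.p14.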

Additional observations from a re-analysis of the deposited data

How the results depend on the processing

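The limits below cover the settings run. Over 18 alternatives that refit gene sums, RPS28, RPL11 and RPL38 were called in 18, RPL29 and RPS27A in 16, RPL8 in 15, RPL22L1 in 14 and RPS26 in 9. Of the settings compared for the members and related lists, 116 values kept their direction and size class and 50 did not. For single named genes 494 kept both, 67 lost an adjusted p under 0.05, 26 gained one and 78 changed sign. The cause was not tested unless the setting itself shows it. At this depth 5 of the 80 members had too few counts to be tested. Of 394 single transcripts tested, 91 were at 0 in at least 1 library.

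Without a minimum fold, 12 members were higher and 19 lower, and with transcripts as deposited 1 and 0. Called members higher were 3 with a minimum of 10 counts in every library and 2 over protein-coding transcripts alone, where 11 were lower and 4 were higher at an adjusted p under 0.05. With DESeq2, RLE factors or total counts 4 were called higher, and 6, 6 and 5 lower. Over all genes these settings called 1783, 1533 and 1585 higher and 3512, 2515 and 2432 lower. With GC content and length corrected 12 members were lower at an adjusted p under 0.05. When 1 library was left out, members called higher numbered 3 to 11 and lower 3 to 6, and without the fold minimum 5 to 15 and 11 to 22. The highest of the first, 11, came without non-BCSC replicate 1, followed by 9 without BCSC replicate 2 and 8 without BCSC replicate 3, while 3 were left without non-BCSC replicate 3. The 3 lower came without non-BCSC replicate 2. At an adjusted p alone, 6 were higher without BCSC replicate 1, 6 without non-BCSC replicate 2 and 5 without non-BCSC replicate 3, and lower ones numbered 12 without non-BCSC replicate 1 and 11 without non-BCSC replicate 2. Over all genes, 22473 to 23992 tested, the fits with 1 library left out called 959 to 2230 higher and 1103 to 3004 lower. At an adjusted p alone they had 1784 to 3338 higher and 1391 to 3566 lower.

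Replicate numbers are shared by the groups. Deviations from the group means of same-numbered libraries correlated at 0.18, 0.01 and 0.22. Libraries of different number correlated at −0.20 to 0.05. BCSC replicates 1 and 3 correlated best with the same number, and BCSC replicate 2 with non-BCSC replicate 1 (0.05). Over members, the rank correlation of this deviation with GC content was 0.72 and 0.69 for replicate 1 of BCSC and non-BCSC. A culture, sort or batch shared by number is not given in the labels and was not tested. The replicate block called 5 higher and 5 lower, the same 10 genes, with 20 higher and 24 lower at an adjusted p alone, and called 0 transcripts. Over all 20442 genes tested the block called 1994 higher and 2321 lower, with 3788 and 3196 at an adjusted p alone. It called 0 of all transcripts tested. The block with the GC correction gave 32 members higher and 25 lower at an adjusted p alone, where 6282 and 1745 of all genes were.

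In the related lists together 15 genes were called higher and 0 lower. The counts were 42 and 4 with GC content corrected, 41 and 4 with the block as well, 26 higher with no filter, 6 and 2 over protein-coding transcripts alone, 2 lower with the minimum of 10 counts and with protein-coding genes only, and 1 lower with DESeq2, RLE factors or total counts. Leaving out 1 library gave 7 to 26 higher and 0 to 2 lower, the fewest without BCSC replicate 1 and the most without non-BCSC replicate 1, with 9 without non-BCSC replicate 3. Transcripts called were 34 higher and 23 lower with DESeq2 and 4 and 9 with the minimum of 10 counts, and 0 and 0 whichever library was left out. The fits with 1 library left out also called 0 of all transcripts tested, except 26 higher and 1 lower without non-BCSC replicate 1. The 0 is thus no trait of the members. The median log2 fold change of the members ran from −0.23 (protein-coding transcripts) to 0.13 (without non-BCSC replicate 1). The difference in the ratio of all RPL to all RPS members per kb was 0.0057.

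With GC content and length corrected these genes changed sign, with the value under the replicate block added given second. The pairs were 0.29 and 0.31 for RPL4, 0.43 and 0.41 for RPS3A, 0.63 and 0.61 for RPL5, −0.25 and −0.24 for RPS2, 0.80 and 0.80 for RPS6, −0.15 and −0.14 for RPL8, 0.026 and 0.024 for RPL34, 0.60 and 0.63 for RPL22L1, −0.17 and −0.23 for RPL26L1, 0.16 and 0.22 for RPL36AL, −0.43 and −0.43 for RPL3, 1.33 and 1.31 for RPL7, 0.69 and 0.72 for RPL22, −0.37 and −0.35 for RPS27, 0.71 and 0.73 for RPL23, −0.18 and −0.15 for RPS19, and 0.37 and 0.40 for RPS24. The other changes of sign were in genes near 0. For RPL26L1 the value was −0.083 with DESeq2 and with RLE factors, −0.14 with the minimum of 10 counts and with protein-coding genes only, −0.15 over protein-coding transcripts, −0.067 with the replicate block, −0.070 with total counts, and −0.20 to 0.30 with 1 library left out. For RPS27L it was −0.015 with DESeq2 and RLE factors, −0.073 with the minimum of 10 counts, −0.066 with protein-coding genes only, and −0.028 to 0.31 with 1 library left out. For RPL26 it was −0.053 with DESeq2 and RLE factors, −0.11 with the minimum of 10 counts and with protein-coding genes only, −0.12 over protein-coding transcripts, −0.036 with total counts, and −0.076 to 0.17 with 1 library left out. For RPS27 it was −0.086 with DESeq2 and RLE factors, −0.14 with the minimum of 10 counts and with protein-coding genes only, −0.21 over protein-coding transcripts, −0.040 with thinned counts, −0.068 with total counts, and −0.14 to 0.25 with 1 library left out. For RPL35A it was −0.014 with DESeq2 and RLE factors, −0.072 with the minimum of 10 counts, −0.067 with protein-coding genes only, −0.097 over protein-coding transcripts, and −0.023 to 0.21 with 1 library left out. RPL7L1 was at −0.043 over protein-coding transcripts. With the most counted transcript in place of the gene sum, RPL23 was at 0.13 and RPS24 at 1.76.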
